A study of Mus musculus with 4 samples.

Results

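The genes described here are the tumour suppressor Trp53, its regulators Mdm2 and Cdkn2a, and 7 genes that p53 is known to switch on, namely Cdkn1a, Ccng1, Zmat3, Sesn2, Bax, Bbc3 and Perp. They were chosen by name, as 10 of the 17946 gene names in the deposited table, and they filled 11 of its 18169 rows because Cdkn2a has a pair of rows. Expression was measured by RNA-seq of poly(A)-selected RNA from primary neural stem/progenitor cells (NSCs) and was deposited as TPM, a share of all transcripts in a sample that is corrected for transcript length. A row was tested where its mean over all samples was at least 1 TPM, which held for 12576 rows in all and for 10 of these 11.

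Cells came from 2 +/+ and 2 Chd5-/- mice of the C57BL/6 strain, each culture being made from the periventricular region of the brain of 1 newborn and grown in medium with EGF and FGF2. Chd5 encodes a chromatin-remodelling protein, the Chd5-/- animals came from an existing Chd5-deficient line, and how its allele was made is not given in the sources used here. The comparison asks how the loss of Chd5 changes the p53 and Cdkn2a genes in these cells. The growth protocol places all animals at postnatal day 1, whereas the age entries read day 1 or 2 in +/+ and day 3 or 4 in Chd5-/-, so age and genotype cannot be told apart if those entries hold. The p-values rest on the spread between 2 samples in each genotype, drawn toward a trend shared over all rows tested. TPM gives no sequencing depth.

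p53 is a transcription factor that is kept scarce in unstressed cells by Mdm2, a ubiquitin ligase that marks it for destruction and that is itself a p53 target. The Cdkn2a locus makes p19Arf, which binds Mdm2 and so frees p53, and p16Ink4a, which blocks the cyclin D kinases ahead of the retinoblastoma protein. Freed or damage-activated p53 raises genes that stop the cell cycle, repair DNA, adjust metabolism or open mitochondria for apoptosis, and in neural stem cells the p53 and Cdkn2a pathways are known to limit self-renewal. Much of the control of p53 acts on the protein, which these RNA measurements do not see.

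The DNA just before the start sites differed among these genes, and 4 stretches are shown, from genes described at length below, to set their sequence beside their levels. RefSeq start sites (GRCm38.p6) matched 8 of the 10 genes, with 12 windows of 250 bases before a start, and Zmat3 and Perp had no match. The p53 decamer, the repeated unit of the p53 response element, was found in 5 of the 12 windows and in 7.13% of 32851 such windows over all genes. It lay 201 bases before the start of Bax, 186 before Mdm2, 185 before Ccng1, 75 before Trp53, and 73 and 51 before the upstream start of Cdkn1a. A single decamer by its letters is not a bound site, and its absence from a window says nothing of p53 acting elsewhere. In the first pair of sequences capitals mark the decamer. Bax, which had the largest difference in mean log2(TPM + 1) between genotypes among the 10 tested rows, is shown from chr7:45466899-45467148 on the minus strand, and the upstream start of Cdkn1a, an abundant gene that differed between the Chd5-/- samples, from chr17:29090729-29090975 on the plus strand.
Bax: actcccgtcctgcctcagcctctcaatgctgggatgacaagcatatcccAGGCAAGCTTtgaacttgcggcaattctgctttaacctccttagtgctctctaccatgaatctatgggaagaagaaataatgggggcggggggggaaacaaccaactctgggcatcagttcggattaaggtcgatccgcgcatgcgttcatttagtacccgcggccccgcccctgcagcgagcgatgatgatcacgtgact
Cdkn1a: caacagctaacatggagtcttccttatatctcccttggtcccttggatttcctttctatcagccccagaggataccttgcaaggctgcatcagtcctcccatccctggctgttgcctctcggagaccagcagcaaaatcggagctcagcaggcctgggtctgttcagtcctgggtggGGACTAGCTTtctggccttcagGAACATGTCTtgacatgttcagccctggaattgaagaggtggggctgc

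Cdkn2a is shown at both of its annotated starts, 12427 bases apart, because its 2 rows went in opposite directions. As background, the distal start belongs to p19Arf and the proximal one to p16Ink4a, but the deposited table does not say what each row stands for and no row was assigned to either. In these sequences capitals mark the GC box GGGCGG, searched on both strands, which 8 of the 12 windows held against 32.7% of all windows. The distal stretch is chr4:89294654-89294869 and the proximal one chr4:89282193-89282442, both on the minus strand, and the distal one was cut short before an annotated exon. Over its whole window the distal start had 78.4% G and C and 40 CG dinucleotides and the proximal start 60.0% and 7, where the median of all windows was 52.4% and 6. The letters TATAAA, also searched on both strands, were in 1 of the 12 windows, that of Trp53, against 12.4% of all windows.
Cdkn2a distal: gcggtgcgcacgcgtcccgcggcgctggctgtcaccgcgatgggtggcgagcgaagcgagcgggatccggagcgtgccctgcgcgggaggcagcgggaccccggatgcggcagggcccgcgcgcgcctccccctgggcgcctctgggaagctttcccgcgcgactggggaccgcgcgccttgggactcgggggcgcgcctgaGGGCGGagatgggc
Cdkn2a proximal: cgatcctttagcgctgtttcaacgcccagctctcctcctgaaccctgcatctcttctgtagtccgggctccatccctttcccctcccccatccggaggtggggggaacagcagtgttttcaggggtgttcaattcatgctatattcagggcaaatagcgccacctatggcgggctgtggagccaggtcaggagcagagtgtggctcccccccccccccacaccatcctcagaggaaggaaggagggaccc

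The samples were checked before the genes were compared. Chd5, the disrupted gene, read 0.39 and 0.37 TPM in +/+ cells against 0.06 and 0.04 TPM in Chd5-/- cells, which follows the labels but lies below the level tested. The rank correlation of all rows tested was 0.974 between the +/+ samples and 0.904 between the Chd5-/- samples. The latter were no closer than samples of different genotype, which lay between 0.904 and 0.925. Values in Chd5-/- samples were shifted as a whole. The median log2 difference over all rows tested was 0.34 on the deposited scale and -0.033 after median-of-ratios scaling. The 20 most abundant rows held 32.4% and 35.6% of TPM in the +/+ samples against 21.6% and 22.8% in the Chd5-/- samples. Changes of the p53 genes are therefore read against all rows tested, called all rows below.

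Markers of neural stem cells were present in every sample, with a summed 7899 and 6509 TPM over 8 genes in the +/+ samples and 3436 and 5629 TPM in the Chd5-/- samples, led by Fabp7. Astrocyte markers summed to 698 and 803 TPM in +/+, 204 TPM in Chd5-/- replicate 1 and 996 TPM in Chd5-/- replicate 2, and 6 of 6 were lower in replicate 1 than in replicate 2 of the Chd5-/- pair, Gfap at 0.71 against 19.66 TPM. Oligodendrocyte markers summed to 27.9, 16.1, 13.3 and 94.0 TPM in the same order, with 5 of 5 tested markers lower in Chd5-/- replicate 1. Neuron markers summed to 507, 518, 372 and 798 TPM, nearly all of it Map2, while the neuron-defining Rbfox3 was listed at 0 in 3 samples. The 2 microglia markers analysed here summed to at most 0.30 TPM, and vascular and mesenchymal markers to 0.71, 0.17, 8.39 and 0.54 TPM, the 8.39 TPM being mostly Col3a1 in Chd5-/- replicate 1. In such bulk samples fewer cells of a type and less RNA per cell cannot be told apart.

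Across the 10 genes, Trp53, 1 Cdkn2a row, Bax, Sesn2 and Bbc3 stood above every +/+ value in each Chd5-/- sample, whereas Mdm2, Cdkn1a, Ccng1, Zmat3 and Perp overlapped between genotypes. With limma, 4 of the 10 tested rows had an unadjusted p under 0.05, all of them higher, where 21.9% of all rows tested were called higher and 2.27% lower, 24.1% together. None passed after Benjamini-Hochberg adjustment over all rows in limma, where 0.0557% of rows were called. The 5 rows that were higher without overlap stood against 46.3% of all rows, and the 0 that were lower without overlap against 13.0%, 59.4% together, so by this count the genes were near the background. Their median log2 difference was 0.82 beside 0.34 for all rows, and 0.47 beside -0.033 after median-of-ratios scaling.

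**Figure D1:**
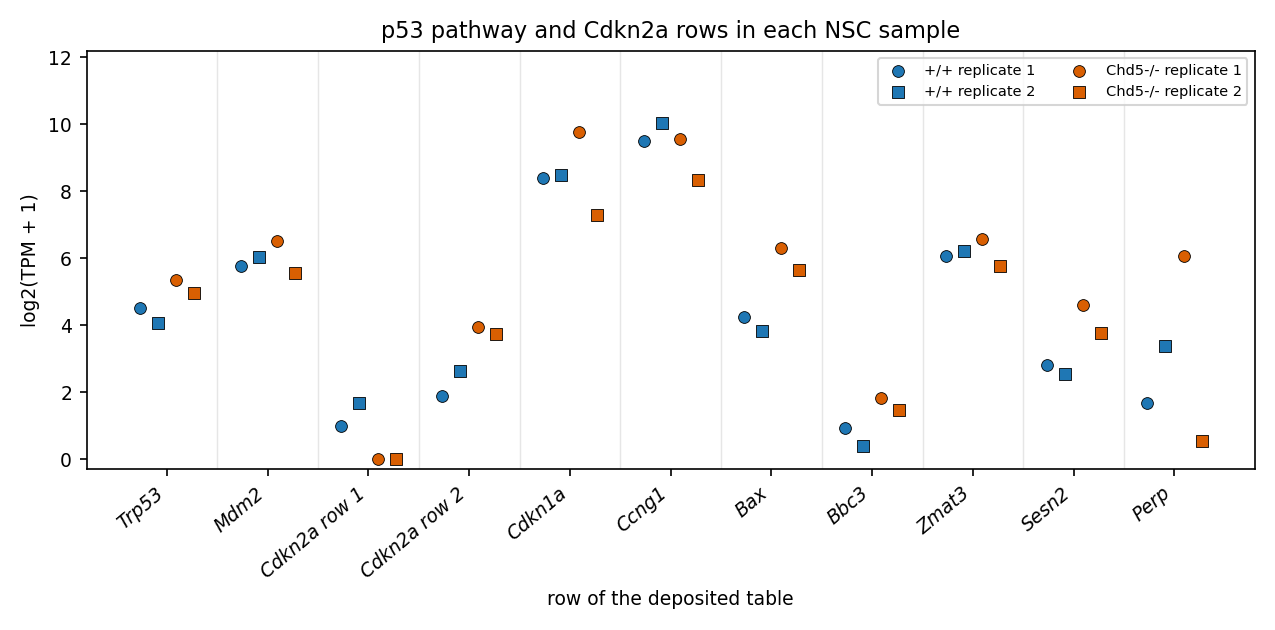
Level as log2(TPM + 1) of each p53 and Cdkn2a row (x axis) in the 4 samples, blue for +/+ and orange for Chd5-/-, circles for replicate 1 and squares for replicate 2. Bax, Sesn2, Trp53 and the second Cdkn2a row separate the genotypes, whereas Cdkn1a and Perp spread most between the 2 Chd5-/- samples, at 881.98 against 155.84 TPM and 65.59 against 0.45 TPM.

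Trp53 (chr11:69580359-69591873, plus strand, GRCm38, GENCODE M21 as for all genes below) measured 21.98 and 15.76 TPM in +/+ cells against 39.99 and 30.34 TPM in Chd5-/- cells. Both Chd5-/- values lay above both +/+ values, and the means were 18.9 ± 4.40 and 35.2 ± 6.82 TPM (SD, n = 2), a ratio of 1.86. The log2 difference of log2(TPM + 1), the scale of all differences below, was 0.87 with an SE of 0.29 (adjusted p = 0.170, limma with Benjamini-Hochberg adjustment). After median-of-ratios scaling it was 0.47, and 0.23 after trends with GC content and transcript length were removed, and in neither fit was its unadjusted p under 0.05. The rows whose pattern over the 4 samples lay closest to that of Trp53 were Tapbp, Cntnap4 and Ccnt1, with a Euclidean distance of 0.0034, 0.047 and 0.048 in centred log2(TPM + 1). Tapbp, a chaperone of antigen loading, was at 16.28, 11.59, 29.73 and 22.51 TPM in the order +/+ replicates 1 and 2, Chd5-/- replicates 1 and 2, which is the order used below.

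Mdm2 (chr10:117688875-117710758, minus strand), the ligase that limits p53, was at 53.88, 64.08, 90.94 and 46.04 TPM. The Chd5-/- samples lay on either side of the +/+ samples, so the genotypes overlapped. The log2 difference was 0.14 with a 95% interval from -0.80 to 1.08 (adjusted p = 0.838, limma with Benjamini-Hochberg adjustment), and it turned to -0.27 after median-of-ratios scaling. Its relative Mdm4, which holds p53 inactive, was at 35.39, 30.29, 42.16 and 35.97 TPM.

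The first Cdkn2a row read 0.99 and 2.17 TPM in +/+ cells and was listed at 0 in both Chd5-/- samples, with a mean below the level tested. The second was at 2.68, 5.22, 14.34 and 12.34 TPM, with means of 3.95 ± 1.80 and 13.3 ± 1.41 TPM (SD, n = 2) and a ratio of 3.38. Its values did not overlap between genotypes, and its log2 difference was 1.58 with an SE of 0.36 (adjusted p = 0.122, limma with Benjamini-Hochberg adjustment). The pair of rows thus stood on opposite sides, and their sum gave a log2 difference of 1.19. With GC and length trends removed the difference of the second row was 0.54 and its unadjusted p was no longer under 0.05. The gene spans chr4:89274471-89294653 on the minus strand, and how reads shared by its overlapping transcripts were divided between the rows is not given in the sources used here.

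Bax (chr7:45461697-45466898, minus strand), which forms pores in the outer mitochondrial membrane during apoptosis, measured 18.14 and 13.24 TPM in +/+ cells against 78.85 and 48.73 TPM in Chd5-/- cells. Both Chd5-/- samples were far above both +/+ samples. The means were 15.7 ± 3.46 and 63.8 ± 21.3 TPM (SD, n = 2), a ratio of 4.07, and the log2 difference was 1.93 with an SE of 0.33 (adjusted p = 0.120, limma with Benjamini-Hochberg adjustment). Bax was the only one of these genes whose unadjusted p stayed under 0.05 in all 16 fits tried, with log2 differences between 0.95 and 2.27, the lowest after GC and length trends were removed.

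Bbc3 (chr7:16308393-16318205, plus strand), which encodes the Bax activator Puma, was at 0.92, 0.30, 2.53 and 1.79 TPM. It was low throughout but higher in both Chd5-/- samples, with means of 0.61 ± 0.438 and 2.16 ± 0.523 TPM (SD, n = 2). Its log2 difference was 0.99 with a 95% interval from -0.013 to 1.99 (adjusted p = 0.211, limma with Benjamini-Hochberg adjustment) and turned to -0.23 once GC and length trends were removed. Its transcripts hold 68.0% G and C, the highest share among these genes.

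Sesn2 (chr4:132492032-132510501, minus strand), a stress-induced inhibitor of mTORC1 signalling, was at 6.02, 4.85, 23.37 and 12.57 TPM. Again both Chd5-/- samples lay above both +/+ samples, with means of 5.44 ± 0.827 and 18.0 ± 7.64 TPM (SD, n = 2) and a ratio of 3.31. The log2 difference was 1.50 with an SE of 0.38 (adjusted p = 0.128, limma with Benjamini-Hochberg adjustment), falling to 0.69 with GC and length trends removed, where its unadjusted p was no longer under 0.05.

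Cdkn1a (chr17:29090976-29100727, plus strand) encodes p21, the inhibitor of cyclin-dependent kinases through which p53 stops the cell cycle. It was among the abundant rows, at 338.21 and 357.54 TPM in the +/+ samples, 881.98 TPM in Chd5-/- replicate 1 and 155.84 TPM in Chd5-/- replicate 2. The +/+ samples were almost alike, and the Chd5-/- samples lay far above and far below them. The means were 348 ± 13.7 and 519 ± 513 TPM (SD, n = 2), and the log2 difference was 0.094 with a 95% interval from -1.94 to 2.12 (adjusted p = 0.953, limma with Benjamini-Hochberg adjustment). Without Chd5-/- replicate 1 the difference was -1.15 and without replicate 2 it was 1.34, so the sign rests on which Chd5-/- sample is kept.

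Ccng1 (chr11:40748552-40755311, minus strand), the p53 target cyclin G1, was the most abundant of these genes in +/+ cells on the TPM scale, at 730.60, 1052.94, 758.17 and 323.17 TPM. Chd5-/- replicate 1 lay between the +/+ samples and replicate 2 below them. The log2 difference was -0.82 with a 95% interval from -2.02 to 0.37 (adjusted p = 0.336, limma with Benjamini-Hochberg adjustment), and it was negative in 16 of 16 fits. Without Chd5-/- replicate 1 it was -1.44 and without Chd5-/- replicate 2 it was -0.21.

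Zmat3 (chr3:32334792-32366014, minus strand), an RNA-binding zinc finger protein, was at 66.64, 72.84, 94.91 and 53.55 TPM, and the genotypes overlapped. Its log2 difference was 0.033 with a 95% interval from -0.80 to 0.86 (adjusted p = 0.959, limma with Benjamini-Hochberg adjustment) and -0.38 after median-of-ratios scaling. Perp (chr10:18845020-18857073, plus strand), a membrane protein of cell junctions and p53-dependent apoptosis, was at 2.18, 9.42, 65.59 and 0.45 TPM. A single sample, Chd5-/- replicate 1, was high, and Chd5-/- replicate 2 was the lowest of all. The log2 difference was 0.77 with a 95% interval from -3.82 to 5.36 (adjusted p = 0.815, limma with Benjamini-Hochberg adjustment), -1.99 without Chd5-/- replicate 1 and 3.53 without Chd5-/- replicate 2.

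**Figure D2:**
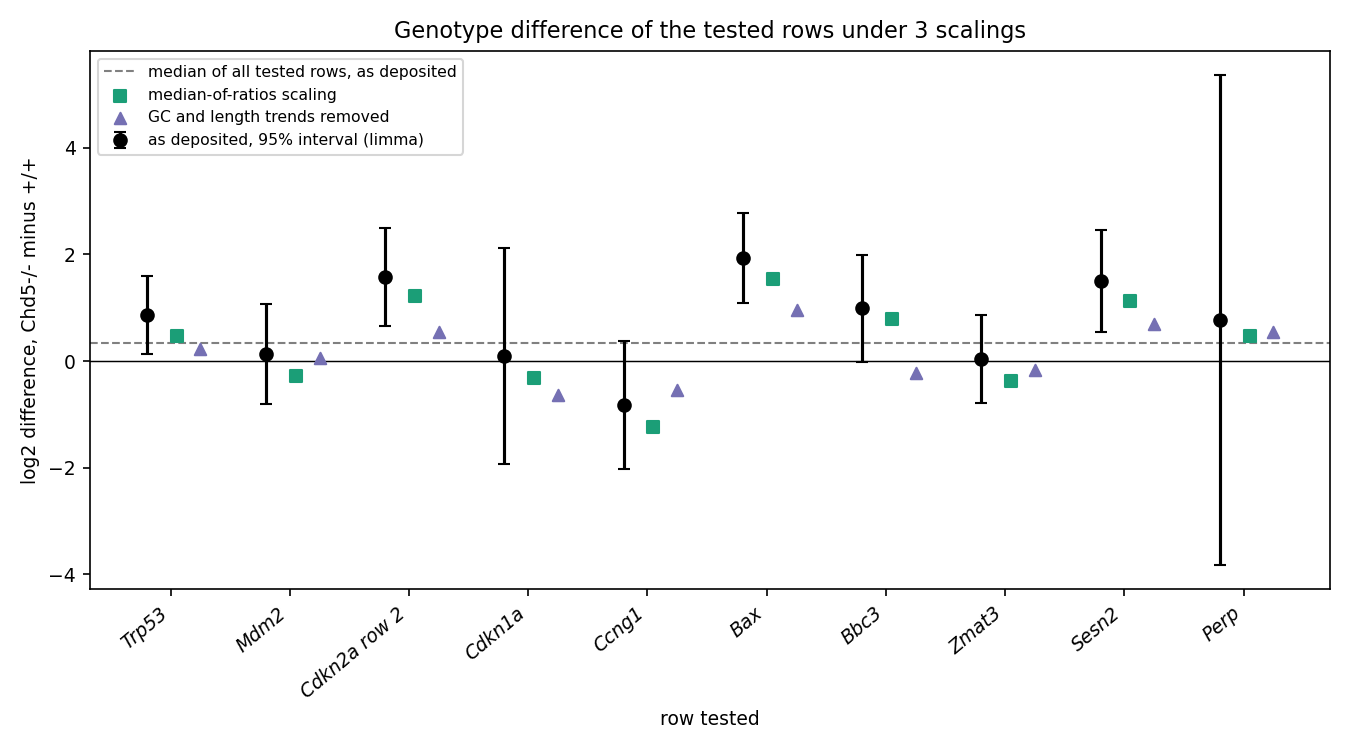
Log2 difference between Chd5-/- and +/+ samples for each tested row (x axis), as black points with the 95% interval of the limma fit on the deposited values, squares after median-of-ratios scaling and triangles after removal of GC and length trends, with a dashed line at the median of all rows, 0.34. The intervals on the deposited values of Bax, the second Cdkn2a row, Sesn2 and Trp53 lie above 0, while those of Cdkn1a, from -1.94 to 2.12, and Perp, from -3.82 to 5.36, are the widest.

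The 2 Chd5-/- samples stood apart from each other in their p53 targets. Of the 10 tested rows, 10 were higher in Chd5-/- replicate 1 than in Chd5-/- replicate 2, where 49.8% of all rows were, and the median gap was 0.83 on the log2 scale. The gap was 5.52 for Perp, 2.49 for Cdkn1a, 1.23 for Ccng1, 0.97 for Mdm2, 0.84 for Sesn2 and 0.81 for Zmat3. As TPM ratios these came to 146, 5.66, 2.35, 1.98, 1.86 and 1.77. A gap at least as large in either direction was found in 0.0795% of all tested rows for Perp and in 2.27% for Cdkn1a. For the rest such gaps were common, from 11.9% of all tested rows for Ccng1 and 17.7% for Mdm2 to 73.0% for the second Cdkn2a row. A total of 3 of the 10 were at least 2-fold higher in replicate 1, against 8.87% of all rows. Between the +/+ samples 4 of the 10 were higher in replicate 1, against 65.9% of all rows, with a median gap of -0.10. These counts compare single samples and carry no test.

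A list of 28 other p53 target genes, of which 27 were tested and Plk3 was not, went the same way. Of these, 21 were higher in Chd5-/- replicate 1 than in replicate 2, with a median log2 gap of 0.88, 13 were at least 2-fold higher and 0 were at least 2-fold lower, where 8.00% of all rows were. Between the +/+ samples 12 of 27 were higher in replicate 1, the median gap was -0.012 and 0 differed 2-fold, against 4.05% of all rows. Pmaip1, which encodes the apoptosis activator Noxa, was at 24.70, 16.80, 64.87 and 7.76 TPM, the largest gap on the list at 2.91. The others at least 2-fold higher were Dcxr, Gdf15, Tigar, Plk2, Tnfrsf10b, Phlda3, Fas, Aen, Eda2r, Pidd1, Ak1 and Gadd45a, with gaps between 1.06 and 2.09. They include the death receptors Fas and Tnfrsf10b, the metabolic regulator Tigar and the growth-arrest gene Gadd45a. The 6 that were lower in Chd5-/- replicate 1 were Rrm2b, Steap3, Sesn1, Btg2, Ddit4 and Trp53cor1.

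Other groups of genes were compared in the same way. Of all rows 49.8% were higher in Chd5-/- replicate 1, 8.87% at least 2-fold higher and 8.00% at least 2-fold lower. The kinases, cyclins and pocket proteins of the G1/S step had 9 of 13 rows higher in Chd5-/- replicate 1, with a median gap of 0.52, 5 at least 2-fold higher and 0 at least 2-fold lower. Target genes of Atf4, a stress factor, had 6 of 10 higher, with a median gap of 0.72, 3 at least 2-fold higher and 0 at least 2-fold lower. Other BCL2 family genes had 6 of 10 higher, with a median gap of 0.20, 3 at least 2-fold higher and 1 at least 2-fold lower. Both counts of 6 were near the share of all rows. Both counts of 3 were above the 8.87% of all rows and equal to that of the 10 p53 and Cdkn2a rows. Genes repressed through p21 and the DREAM complex, which serve mitosis and replication, were lower in Chd5-/- replicate 1 than in replicate 2 for 13 of 14. Mybl2 was the exception, and the median gap was -0.52. These genes also differed within the +/+ pair, where 14 of 14 were higher in replicate 1, with a median gap of 0.72. In the p53 family with its kinases and modifiers 9 of 20 were higher in Chd5-/- replicate 1, near the 49.8% of all rows. The markers of astrocytes, oligodendrocytes and neurons given above were also lower in Chd5-/- replicate 1, with a median gap of -2.09 for the astrocyte list. Of the neural stem cell markers 2 of 8 were higher in Chd5-/- replicate 1, with a median gap of -0.84. The part of these lists in the gap of the p53 targets was not tested.

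**Figure D3:**
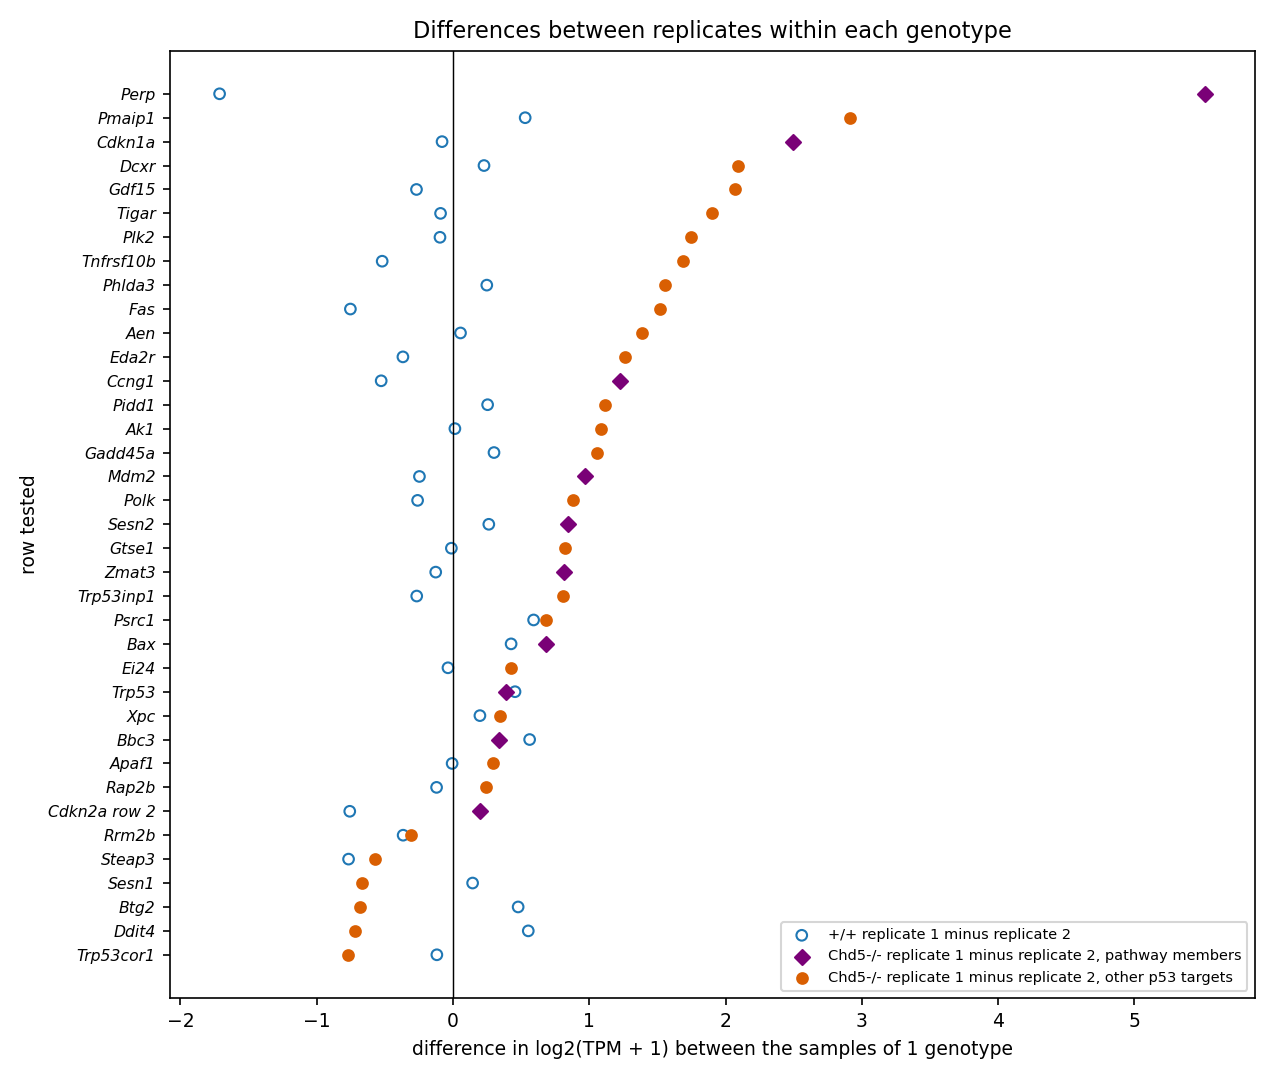
Difference in log2(TPM + 1) between replicates 1 and 2 (x axis) for the tested p53 and Cdkn2a rows and the other p53 targets (y axis), with filled diamonds and filled circles for these lists in the Chd5-/- pair and open circles for the +/+ pair. In the Chd5-/- pair 10 of 10 diamonds and 21 of 27 filled circles lie above 0, up to 5.52 for Perp, whereas the open circles lie on both sides of 0.

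The level of each gene relative to Trp53 within a sample depends little on how samples were scaled to each other, though for low genes it depends on the pseudocount. On the scale of log2((TPM + 1)/(Trp53 TPM + 1)), Bax stood at -0.26 and -0.24 in the +/+ samples and at 0.96 and 0.67 in the Chd5-/- samples, a difference of 1.06. Relative to Trp53 the second Cdkn2a row was higher by 0.71, Sesn2 by 0.64 and Bbc3 by 0.12, without overlap between genotypes, but the value of Bbc3 turned to -0.40 with a pseudocount of 5 and was 0.90 with one of 0.1. That of the Cdkn2a row was 0.10 without +/+ replicate 1 and 1.32 without +/+ replicate 2, and 0.29 with a pseudocount of 5, where that of Sesn2 was 0.35. Ccng1 went the other way, from 4.99 and 5.97 to 4.21 and 3.37, a difference of -1.69, and Mdm2, at 1.26 and 1.96 in the +/+ samples, was at 1.17 and 0.59 in the Chd5-/- samples, a difference of -0.73. Zmat3 also stood lower relative to Trp53, by a difference of -0.84, while Cdkn1a and Perp overlapped. The first Cdkn2a row, below the level tested, stood lower without overlap, by a difference of -2.20. That value was -4.88 with a pseudocount of 0.1 and -1.14 with one of 5. For each ratio without overlap the two-sided exact permutation p was 0.333, the smallest that 2 samples against 2 can give.

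Between genotypes, the 27 other p53 targets showed 6 rows higher and 0 lower at an unadjusted p under 0.05, Btg2, Dcxr, Ddit4, Psrc1, Sesn1 and Trp53cor1, and 12 higher and 1 lower without overlap. These counts were close to the shares of all rows, 21.9% and 46.3% for the higher ones. Their median log2 difference was 0.42, near the 0.34 of all rows. Dcxr, a sugar reductase, was at 4.34, 3.56, 35.59 and 7.60 TPM with a log2 difference of 1.85, and Psrc1, a spindle protein, at 36.45, 23.85, 100.26 and 62.01 TPM with a difference of 1.39. The row without overlap that was lower was Rap2b, a small GTPase, at 65.20, 70.95, 56.59 and 47.60 TPM. None passed the adjusted threshold in limma. Without Chd5-/- replicate 1 the median log2 difference of these 27 was -0.069, beside 0.35 for all rows. Without Chd5-/- replicate 2 it was 0.91, beside 0.33 for all rows.

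Among 20 tested genes of the p53 family and of its kinases and modifiers, 4 were higher and 0 lower at an unadjusted p under 0.05, namely Wrap53, Daxx, Trp53bp1 and Kat5, a share close to the 21.9% of all rows called higher, with a median log2 difference of 0.43. With median-of-ratios scaling 1 was higher and 2 were lower and the median was 0.032, where 1391 of 12576 rows were higher and 1508 lower. The count went to 0 with GC and length trends removed, where 609 of 12109 rows were higher and 758 lower. Wrap53, a telomerase factor, was at 1.89, 1.65, 5.88 and 6.19 TPM, but it overlaps Trp53 on the opposite strand and the strand setting of the counting is not given in the sources used here, so its value and that of Trp53 are uncertain to that extent. Daxx, a histone chaperone that binds Mdm2, was at 4.78, 4.00, 9.06 and 10.11 TPM. The checkpoint kinase Chek1, at 16.48, 12.02, 10.13 and 4.97 TPM, and the ubiquitin ligase gene Rfwd2, at 69.59, 71.18, 66.98 and 51.56 TPM, were the lowest relative to +/+ among those without overlap.

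Ribosomal proteins and nucleolar factors that bind Mdm2 or p19Arf included 6 of 13 that were higher and 0 that were lower at an unadjusted p under 0.05, and 10 that were higher without overlap, beside 21.9% and 46.3% of all rows, with a median log2 difference of 0.61. The count of 6 went to 3 and the median to 0.20 with median-of-ratios scaling, where 1391 of 12576 rows were higher. The count went to 3 once GC and length trends were taken out, where 609 of 12109 rows were higher. With the replicate block added to that it was 1, beside 416 rows. Rps14 was at 307.82, 166.21, 743.74 and 866.29 TPM, a log2 difference of 1.82, and Rpl26 at 777.82, 466.01, 1562.07 and 1779.32 TPM, a difference of 1.47. Unlike the p53 targets, 4 of these 13 were higher in Chd5-/- replicate 1 than in replicate 2. The study singled out ribosomal protein genes on these samples, so this list is not independent evidence of its direction.

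Regulators of the Cdkn2a locus, mostly Polycomb proteins that silence it and factors that oppose them, gave no common direction. Of 20 tested rows 5 were higher at an unadjusted p under 0.05, Cbx2, Ring1, Cbx7, Kdm6b and Ets1, and 1 was lower, Id1, and their median log2 difference of 0.079 was below that of all rows and turned to -0.32 after median-of-ratios scaling. The shares of all rows were 21.9% higher and 2.27% lower. The list had 3 higher and 3 lower with median-of-ratios scaling, where 1391 of 12576 rows were higher and 1508 lower. It had 0 and 3 with quantile normalization, beside 1103 and 1021 of those rows. Once GC and length trends were taken out it had 1 and 3, beside 609 and 758 of 12109. Cbx2, at 1.48, 0.43, 3.0 and 5.0 TPM, and Ring1, at 2.78, 1.67, 7.37 and 6.73 TPM, are Polycomb subunits. Id1, which restrains Ets factors at this locus, was at 45.84, 30.35, 13.86 and 12.26 TPM with a log2 difference of -1.45 (adjusted p = 0.120, limma with Benjamini-Hochberg adjustment). Hmga2, a chromatin protein of young neural stem cells, was at 16.64, 60.48, 15.75 and 10.12 TPM, where 1 +/+ sample carried most of the difference.

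Downstream of p16Ink4a and p21, the kinases, cyclins and pocket proteins of the G1/S step had 2 of 13 rows higher, Cdk4 and Ccnd3, and 1 lower, Rb1, at an unadjusted p under 0.05, with a median log2 difference of 0.015, beside 21.9% of all rows higher and 2.27% lower. With median-of-ratios scaling 0 were higher and 5 lower, with a median of -0.36, where 1391 of 12576 rows were higher and 1508 lower. With quantile normalization the counts were 1 and 3, beside 1103 and 1021 of those rows. Once GC and length trends were taken out they were 0 and 2, beside 609 and 758 of 12109. Cdk4, the kinase that p16Ink4a inhibits, was at 130.01, 80.85, 173.86 and 295.84 TPM, and cyclin D3 (Ccnd3) at 9.59, 7.73, 18.07 and 14.16 TPM. Cyclin D2 (Ccnd2) was at 327.37, 325.43, 250.67 and 58.15 TPM and cyclin E2 (Ccne2) at 20.24, 17.03, 12.77 and 3.35 TPM, both lowest in Chd5-/- replicate 2. Among 5 other CDK inhibitors 1 was higher at an unadjusted p under 0.05, Cdkn1c, which encodes p57, at 0.18, 0.15, 6.02 and 1.13 TPM, a count that went to 0 with median-of-ratios scaling. Cdkn2d, which encodes p19Ink4d, was at 17.25, 12.55, 20.12 and 18.76 TPM. Cdkn2b, the neighbour of Cdkn2a, was at 38.11, 55.68, 55.44 and 36.68 TPM and overlapped between genotypes.

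The 14 genes repressed through p21 and DREAM had 5 higher and 0 lower at an unadjusted p under 0.05, beside 21.9% of all rows higher, and a median log2 difference of 0.71, led by the mitotic genes Cdc20, at 11.57, 4.42, 23.57 and 43.36 TPM, and Ccnb2, at 18.72, 9.26, 28.78 and 70.61 TPM. The count of 5 went to 0 with GC and length trends removed, where 609 of 12109 rows were higher. With median-of-ratios scaling it went to 1, where 1391 of 12576 rows were higher. In the +/+ pair 14 of 14 of these genes were higher in replicate 1 than in replicate 2, against 65.9% of all rows. Other BCL2 family genes, the relatives of Bax and Bbc3, had 4 of 10 higher and 0 lower, again beside 21.9% of all rows higher. With GC and length trends removed 1 was higher and 1 lower, beside 609 and 758 of 12109 rows. There their median went from 0.49 to -0.0032. The 4 were Bad, at 1.80, 1.14, 7.96 and 6.78 TPM, Bmf, at 3.01, 2.27, 5.55 and 32.56 TPM, and Bok and Bak1, all of which promote apoptosis. The survival gene Bcl2l1 was at 18.25, 19.14, 50.32 and 14.75 TPM. Among the 10 target genes of Atf4, which also acts on Sesn2, 4 were higher and 0 lower, with the same share of all rows beside them and a median log2 difference of 0.98. With GC and length trends removed 1 was higher and 1 lower, beside the same 609 and 758 of 12109 rows, and the median was 0.28. They included the serine synthesis gene Phgdh, at 23.96, 14.14, 44.66 and 80.16 TPM, and the phosphatase subunit Ppp1r15a, at 3.46, 2.44, 10.51 and 6.90 TPM, while the asparagine synthetase gene Asns, at 78.08, 75.81, 70.42 and 37.42 TPM, was lower in both Chd5-/- samples. None of the rows in these lists passed the adjusted threshold in limma.

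**Figure D4:**
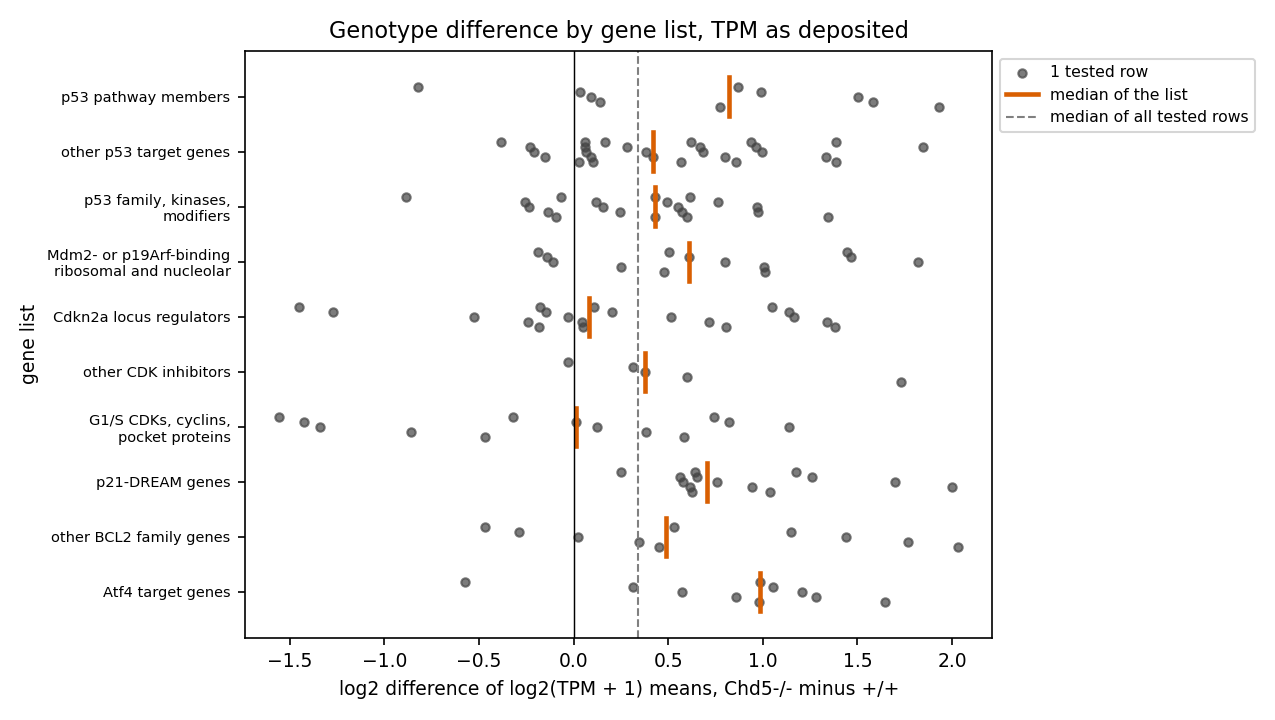
Log2 difference between Chd5-/- and +/+ samples (x axis) for the p53 and Cdkn2a genes and each related list (y axis), 1 point per tested row, with an orange bar at the median of each list and a dashed line at the median of all tested rows, 0.34. The medians run from 0.015 for the G1/S genes to 0.98 for the Atf4 targets, and the p53 and Cdkn2a rows have a median of 0.82.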

How the data were processed

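RNA was sequenced from 4 samples of primary NSCs, 2 per genotype, grouped by the genotype in the labels. The authors deposited TPM values in 1 table. The submitters' processing notes name Bowtie2 2.2.3, RSEM 1.2.20 and mm10, and the annotation and strand setting are not given in the sources used here. TPM keeps no depth, so precision rests on the spread between samples, in part shared over rows. Library preparation used a stranded poly(A) kit.

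From the deposited TPM, log2(TPM + 1) was computed, rows averaging 1 TPM or more entered a two-sided limma fit (limma 3.58.1, R 4.3.3, lmFit and trended eBayes), and p-values were adjusted by Benjamini-Hochberg over all 12576 rows. GC content and length, used to remove trends by loess (span 0.5), came from GENCODE M21 and were found for 96.3% of rows tested. Promoters came from RefSeq (GRCm38.p6). The genes and lists were chosen with earlier results of these data known. Named genes were the 10 genes and, in each related list, the 2 highest and the 2 lowest differences among rows without overlap between genotypes, and any others were named after their values were seen. The counts of rows that differ between Chd5-/- replicates and the sum of both Cdkn2a rows were also added after seeing the data. The procedure was tested on simulated data. Python 3.11.15, pandas 2.3.3, numpy 2.4.6 and matplotlib 3.10.9 were used.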

Additional observations from a re-analysis of the deposited data

How the results depend on the processing

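The count of 4 p53 and Cdkn2a rows at an unadjusted p under 0.05 went to 1 with quantile normalization, with GC and length trends removed, and with the replicate block and those trends removed together, and ranged from 2 to 8 when single samples were left out. The count of 0 past the adjusted threshold was the same in every fit that kept all 4 samples. A fit without 1 sample assumes that the lone sample varies like the other pair, so its counts of called rows are not given. For the other p53 targets the count of 6 went to 3 with quantile normalization, 3 with GC and length trends removed and 1 with the replicate block and those trends removed, and ranged from 0 to 17. The replicate numbers mark different mice, and deviations of same-numbered samples correlated at -0.152 over 12576 rows. With 2 samples per genotype this value cannot tell whether same-numbered samples were prepared together. With the replicate block alone the counts were 4 and 6, as without it, beside 2111 of 12576 rows higher and 178 lower. In that fit 0 of all rows passed the adjusted threshold in place of 7.

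Directions turned for 5 rows. Cdkn1a, at 0.094, was -0.32 with median-of-ratios scaling, -0.14 with quantile normalization, -0.14 with rescaling without the 20 most abundant rows, and -0.63 once GC and length trends were taken out, with or without the replicate block, and ranged from -1.15 to 1.34 when samples were left out. In the same order Zmat3 was -0.38, -0.096, -0.20 and -0.16, and ranged from -0.37 to 0.44. Mdm2 was -0.27, -0.019 and -0.095 under the first 3 and ranged from -0.35 to 0.62. Bbc3 was -0.23 with GC and length trends removed, with or without the block, and Perp ranged from -1.99 to 3.53. Bax, the second Cdkn2a row, Sesn2 and Trp53 stayed positive and Ccng1 negative in every fit tried, the cause of the other turns being not tested. The ratio of Bbc3 to Trp53 went from 0.12 to -0.40 with a pseudocount of 5. The counts of 10 of 10 and 21 of 27 rows higher in Chd5-/- replicate 1 were the same under each scaling and with trends removed. With 2 samples per genotype and no depth, small differences were not detectable.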
